A study of Mus musculus with 6 samples.

Results

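The 10 genes described here belong to the epidermal growth factor (EGF) system of the skin: the ligand genes Epgn, Areg, Hbegf, Tgfa, Btc and Ereg, the receptor genes Egfr and Erbb2, and the regulators Errfi1 and Lrig3. They were chosen by name, and all 10 were found among the 17025 genes of the deposited table. The RNA came from epidermal progenitor cells positive for integrin α6, sorted by flow cytometry from mice on the day of birth (postnatal day 0). There were 3 libraries labelled cKO (genotype K14Cre,Ash2lF/F, with both Ash2l alleles floxed) and 3 labelled control (K14Cre,Ash2lF/+, with 1 floxed allele), with 31578875 to 36027550 fragments each. All animals therefore carried the Cre recombinase driven by the keratin 14 promoter, which is active in basal keratinocytes, and the control animals carried a floxed allele too. The series asks what ASH2L, a subunit of the enzyme complexes that methylate lysine 4 of histone H3, does in the differentiation of the epidermis, in the making of hair follicles and for Notch signalling.

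EGF ligands are made as membrane-anchored precursors that proteases of the ADAM family cut free. A released ligand binds the receptor tyrosine kinase EGFR, which pairs with another EGFR or with its relative ERBB2, a receptor with no known ligand of its own, and signals through the Ras-ERK and PI3K-AKT cascades. In keratinocytes this system is known for driving proliferation, migration in wounds and the growth of hair follicles, and several ligands raise the expression of each other. ERRFI1 (also called MIG6) binds the kinase domain of EGFR and blocks it, and its gene is itself induced by EGFR signalling. LRIG3 is a membrane protein of the LRIG family, whose member LRIG1 lowers the amount of EGFR.

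The targeted gene went against the labels. Ash2l had 30.9, 29.5 and 22.9 FPKM (fragments per length of gene model and per library total) in the libraries labelled cKO 1, 2 and 3, against 12.4, 18.1 and 15.9 FPKM in those labelled control 1, 2 and 3. The groups did not overlap, with more Ash2l in the libraries labelled cKO (0.81 on the log2 scale, limma adjusted p = 0.0240, lost without cKO 1, cKO 2, control 1 or control 3). A total per gene does not show which exons the reads came from. Whether the labels match the genotypes could not be checked here, and no library was moved. Every direction below is drawn from these labels. The labelled cell type was present in all libraries, with Krt5 at 2249 to 4876 FPKM and Krt14 at 1683 to 3147 FPKM, both of them keratins of basal cells. Over 10 basal keratinocyte markers the sums overlapped, at 8137 to 10502 FPKM in the libraries labelled cKO and 5090 to 8855 FPKM in those labelled control. On that list Krt15 was higher (2.23, adjusted p = 0.00215), the integrin genes Itgb1 (-1.57, adjusted p = 0.0201) and Itgb4 (-1.70, adjusted p = 0.0437) were lower and 7 were not called. Of the 10 basal markers 3 had a positive difference, and the median over all 10 was -0.67. Itga6, the gene of the integrin used for sorting, was at 53.6, 53.0 and 19.7 FPKM in the libraries labelled cKO, against 162, 78.8 and 72.0 FPKM in those labelled control, without overlap (-1.32, adjusted p = 0.0710). Libraries also stood apart within their groups. Control 1 held 357 FPKM of the immediate-early gene Fos against 34.6 to 38.9 FPKM in the other 5 libraries, and in cKO 3 Krt1 and Krt10 took 16.2% of the FPKM sum against 7.97% and 8.38% in cKO 1 and 2 and 0.885 to 1.28% in the libraries labelled control.

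The summed level of 10 melanocyte markers was 182 to 403 FPKM in the libraries labelled cKO, against 3003 to 3433 FPKM in those labelled control. All 10 were called lower, against 13.6% of all genes tested, and none was at 0 in either group. Of the 10, 1 entered the test through the libraries labelled control alone and so had to differ. For 10 suprabasal keratinocyte markers the sums were 36355 to 70099 FPKM and 5025 to 6994 FPKM, and Krt1 and Krt10 made up most of the sum in each library. Of these 10 markers, 6 were called higher, against 5.87% of all genes tested, 4 were not called, and 9 had a positive difference. For 10 wound and stress keratinocyte markers the sums were 1930 to 2503 FPKM and 3952 to 5348 FPKM. Macrophage and other leukocyte markers, 9 of the 10 listed being in the table, summed to 10.2 to 14.0 FPKM and 16.7 to 18.8 FPKM, with Cd68 the highest of them in each library, and the pan-leukocyte gene Ptprc did not exceed 0.173 FPKM in any library. Fibroblast markers summed to 322 to 984 FPKM and 1220 to 1784 FPKM and endothelial markers to 3.21 to 10.4 FPKM and 10.2 to 15.8 FPKM, with Emcn and Plvap at 0 in all libraries labelled control. In those labelled cKO 1, 2 and 3, Emcn had 0, 1 and 0 fragments and Plvap 7, 2 and 0. Of 5 endothelial markers tested, 2 were called lower, against 13.6% of all genes tested, and 1 had a positive difference. The 2 called passed the filter through the libraries labelled control alone and so had to differ. The lower fibroblast sum came from Vim: without it the other 9 genes summed to 210 to 509 FPKM in the libraries labelled cKO and 135 to 401 FPKM in those labelled control, overlapping. Of the 10 fibroblast genes, 7 had a positive difference, with a median of 0.78, and Vim was called lower and Fbln1 higher. The part of these cell types in the results below was not tested. In libraries of whole sorted populations, fewer cells of a type and less RNA per cell cannot be told apart.

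Upstream sequences are shown for the called ligand and regulator genes that had one in the set of RefSeq start sites used. These sequences are of Areg, Epgn and Errfi1, lower in the libraries labelled cKO, and of Lrig3, which was higher. Each is the 250 bases before a RefSeq start site in GRCm38.p6, on the plus strand, at chr5:91139349-91139598 for Areg, chr5:91027267-91027516 for Epgn, chr4:150854820-150855069 for the second listed start site of Errfi1 and chr10:125965969-125966218 for Lrig3. That build differs from the GRCm39 named for the deposited values, so the sequences are credited to RefSeq and no count was read from these positions. Of the 10 genes, 8 had an upstream sequence in that set, with 9 start sites, and Ereg and Hbegf had none there. Capitals mark the cyclic AMP response element (CRE) TGACGTCA and the TATA box letters TATAAA. Both were searched on both strands, as was an AP-1 motif of the letters TGAGTCA, and no matches overlapped.
Areg: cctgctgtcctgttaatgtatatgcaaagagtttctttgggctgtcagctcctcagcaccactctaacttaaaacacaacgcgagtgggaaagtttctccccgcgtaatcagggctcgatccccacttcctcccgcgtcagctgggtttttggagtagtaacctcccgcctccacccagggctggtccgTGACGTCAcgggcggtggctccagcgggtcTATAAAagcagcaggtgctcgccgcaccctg
Epgn: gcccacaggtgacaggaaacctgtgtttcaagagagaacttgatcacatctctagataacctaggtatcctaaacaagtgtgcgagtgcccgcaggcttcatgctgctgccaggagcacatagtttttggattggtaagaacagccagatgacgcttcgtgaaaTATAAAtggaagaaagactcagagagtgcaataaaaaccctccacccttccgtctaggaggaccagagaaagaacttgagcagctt
Errfi1: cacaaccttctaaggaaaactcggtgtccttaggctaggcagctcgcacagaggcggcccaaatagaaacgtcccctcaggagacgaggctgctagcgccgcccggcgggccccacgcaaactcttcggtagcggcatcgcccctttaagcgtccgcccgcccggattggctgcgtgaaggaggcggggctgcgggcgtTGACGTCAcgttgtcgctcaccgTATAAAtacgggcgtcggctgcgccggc
Lrig3: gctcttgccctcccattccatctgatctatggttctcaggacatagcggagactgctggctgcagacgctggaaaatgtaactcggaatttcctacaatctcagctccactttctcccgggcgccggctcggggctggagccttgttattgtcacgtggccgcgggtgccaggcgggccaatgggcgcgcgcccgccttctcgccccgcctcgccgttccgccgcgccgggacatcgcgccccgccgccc

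The windows of Areg and of this Errfi1 start site each held 1 CRE, at 61 to 54 and at 51 to 44 bases before the start, followed by 1 TATA box, at 31 to 26 and at 28 to 23 bases before it. The Epgn window held 1 TATA box, 86 to 81 bases before the start, and the Lrig3 window none of the 3 motifs. Of 32851 RefSeq windows of this length, 1.55% held the CRE letters, 12.4% those of the TATA box, 4.46% those of the AP-1 motif and 0.119% both a CRE and a TATA box. The AP-1 letters were in none of the 9 windows of these genes, and the windows of Egfr, Erbb2, Tgfa and Btc and the first listed start site of Errfi1 held none of the 3 motifs. A match is a string of letters and not evidence of binding.

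Differences between the groups were tested on log2(FPKM + 1) over the 11603 genes that averaged 1 FPKM or more, and a gene was called at a limma adjusted p under 0.05. Of the 10 EGF family genes, 8 passed this filter: Btc and Ereg did not, and Areg and Epgn passed it through the libraries labelled control alone. Of the 8 tested, Epgn, Areg, Errfi1 and Hbegf were lower and Lrig3 and Erbb2 higher in the libraries labelled cKO, while Egfr and Tgfa were not called. Over all genes tested, 13.6% were called lower, 5.87% higher and 19.5% in either direction. The groups did not overlap for 7 of the 8 tested genes, all but Tgfa, against 42.9% of all genes tested. The median difference of all genes tested was -0.17, and a median-of-ratios scaling gave 0.03 instead, with 1044 genes called higher and 1001 lower, against 681 and 1576 as deposited.

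**Figure D1:**
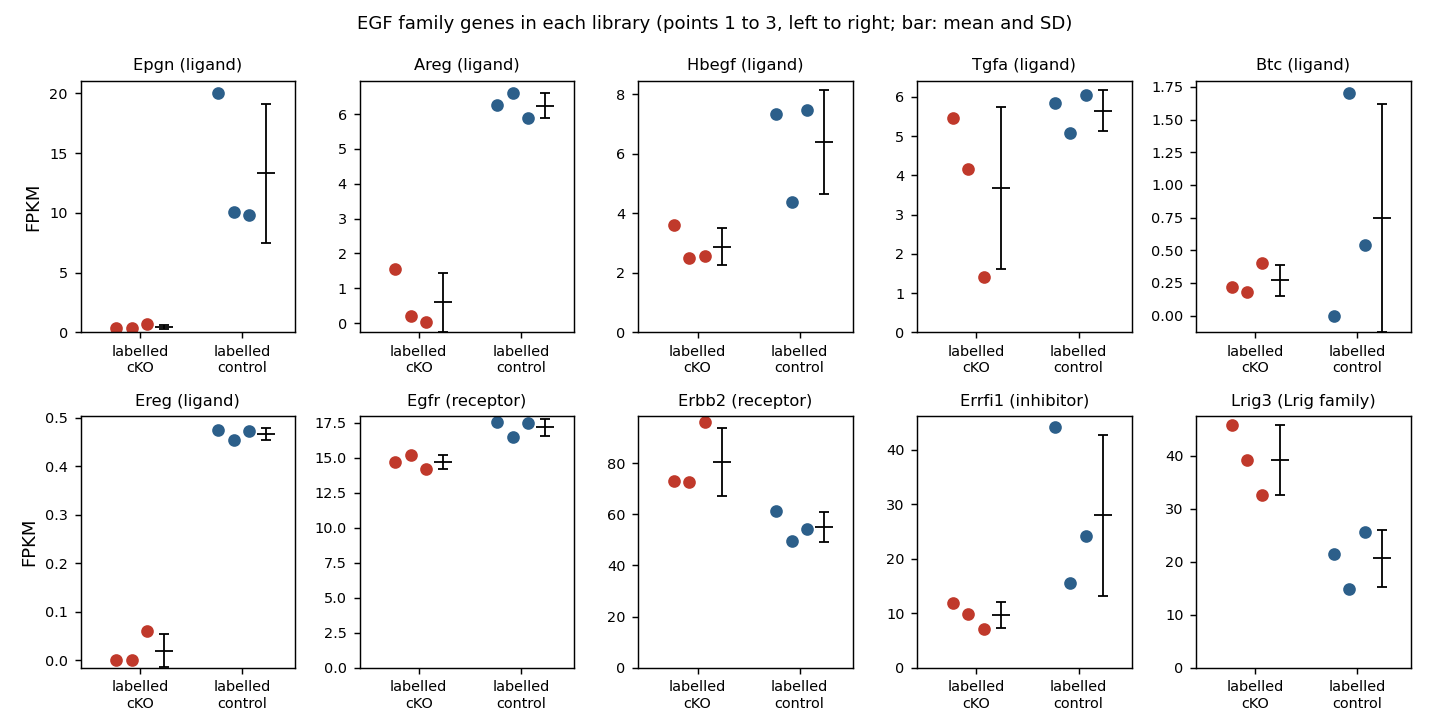
FPKM of each EGF family gene (vertical axis, linear) in the 3 libraries labelled cKO (red, left) and the 3 labelled control (blue, right), with points for replicates 1 to 3 from left to right and a bar for the mean and SD. Epgn and Ereg lie near 0 in the libraries labelled cKO and Areg does so in cKO 2 and 3, Egfr differs little, and Erbb2 and Lrig3 are higher there.

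Epgn, which encodes epigen, a low-affinity ligand of EGFR, was the ligand gene with the highest level in each library labelled control. It had 0.384, 0.328 and 0.684 FPKM in the libraries labelled cKO 1, 2 and 3, against 20.1, 10.1 and 9.82 FPKM in those labelled control 1, 2 and 3. All 3 libraries labelled cKO were far below the lowest library labelled control, and control 1 held about as much as control 2 and 3 together. These levels rest on 22, 19 and 42 fragments in the libraries labelled cKO and on 1079, 568 and 549 in those labelled control. The means were 0.465 ± 0.192 and 13.3 ± 5.83 FPKM (SD, n = 3 each), a ratio of 28.6 between labelled control and labelled cKO. On the log2(FPKM + 1) scale the difference was -3.22 (SE 0.30, adjusted p = 0.00116), and the call held under all 16 alternatives (adjusted p up to 0.0105). Epgn passed the filter through the libraries labelled control alone, and a gene that passes in that way has to differ. With no filter on low values its limma adjusted p was 0.00698.

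Areg, which encodes amphiregulin, a ligand that keratinocytes release and respond to in culture, was also lower. Its level was 1.57, 0.193 and 0.0228 FPKM in the libraries labelled cKO 1, 2 and 3, against 6.26, 6.60 and 5.87 FPKM in those labelled control 1, 2 and 3. The libraries labelled control lay close together, while those labelled cKO spread widely, from 64 fragments in cKO 1 to 8 in cKO 2 and 1 in cKO 3. Means were 0.594 ± 0.846 and 6.24 ± 0.363 FPKM (SD, n = 3 each), with a difference of -2.31 (SE 0.35, adjusted p = 0.00519). The call held in all 15 alternatives that could test it (adjusted p up to 0.0367), and with a pseudocount of 0.01 in place of 1 the difference was -4.83. Areg too passed the filter through the libraries labelled control alone and so had to differ. With no filter on low values its limma adjusted p was 0.0179.

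Hbegf, which encodes heparin-binding EGF-like growth factor, a ligand known for its induction at wound edges, was lower by a smaller margin. It had 3.59, 2.498 and 2.56 FPKM in the libraries labelled cKO 1, 2 and 3, against 7.33, 4.37 and 7.49 FPKM in those labelled control 1, 2 and 3. The groups did not overlap, but control 2 was nearer to cKO 1 than to the other libraries labelled control. The difference was -0.91 (SE 0.25, adjusted p = 0.0397). That call was lost without cKO 1, cKO 2, cKO 3, control 1 or control 3 (adjusted p up to 0.126) and with median-of-ratios scaling (-0.73, adjusted p = 0.0700).

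Tgfa, which encodes transforming growth factor α, the ligand whose loss gives mice wavy hair and whiskers, did not pass the test. Its level was 5.46, 4.17 and 1.41 FPKM in the libraries labelled cKO 1, 2 and 3, against 5.84, 5.07 and 6.04 FPKM in those labelled control 1, 2 and 3. The groups overlapped, cKO 1 lying above control 2, and cKO 3 stood apart as the lowest. The difference was -0.62 (SE 0.36, adjusted p = 0.255), and -0.20 without cKO 3.

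Btc and Ereg, the genes of betacellulin and epiregulin, both ligands that bind EGFR and ERBB4, were near the lower limit of the measurement. Ereg was at 0, 0 and 0.0604 FPKM in the libraries labelled cKO 1, 2 and 3, against 0.475, 0.454 and 0.472 FPKM in those labelled control 1, 2 and 3. In fragments that is 0, 0 and 9 against 62, 62 and 64, and a count of 0 allows up to 0.0216 FPKM in cKO 1 and 0.0213 FPKM in cKO 2 at 3 fragments per library. The 3 libraries labelled control agreed closely and all lay above those labelled cKO. An exact two-sided permutation test of Ereg gave p = 0.1, the smallest that 3 against 3 libraries can give. With no filter on low values limma tested all 10 EGF family genes, and 3 were called lower, Ereg beside Epgn and Areg. Over all 17025 genes that setting called 1340 lower and 549 higher. Btc had 0.217, 0.184 and 0.405 FPKM in the libraries labelled cKO 1, 2 and 3, against 0, 1.70 and 0.541 FPKM in those labelled control 1, 2 and 3. Its groups overlapped and the spread lay in the libraries labelled control, control 1 having no fragment, which allows up to 0.0330 FPKM, and control 2 having 162. For Btc the same exact permutation test gave p = 0.6.

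The genes Epgn, Ereg, Areg and Btc are neighbours on chromosome 5 with no other protein-coding gene between them in the RefSeq annotation of GRCm38.p6. The genes on either side of them were not called. Mthfd2l, next to Epgn, was at 4.61, 5.26 and 4.14 FPKM in the libraries labelled cKO, against 4.21, 3.69 and 2.38 FPKM in those labelled control (0.38, adjusted p = 0.280). Parm1, next to Btc, was at 11.3, 12.0 and 12.2 FPKM in the libraries labelled cKO, against 7.90, 3.34 and 8.71 FPKM in those labelled control (0.83, adjusted p = 0.0937).

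Summed over the 6 ligand genes, the libraries labelled cKO 1, 2 and 3 held 11.2, 7.38 and 5.14 FPKM, and those labelled control 1, 2 and 3 held 39.95, 28.3 and 30.2 FPKM. FPKM is scaled to gene length, so the ligands can be set beside each other. Epgn gave 3.42, 4.44 and 13.3% of the ligand sum in the libraries labelled cKO and 50.2, 35.7 and 32.5% in those labelled control. Tgfa gave 48.6, 56.6 and 27.4% in the libraries labelled cKO and 14.6, 17.9 and 20.0% in those labelled control, so that Tgfa led in cKO 1 and 2, Hbegf in cKO 3 and Epgn in all libraries labelled control. These shares follow from the levels above and were not tested.

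**Figure D2:**
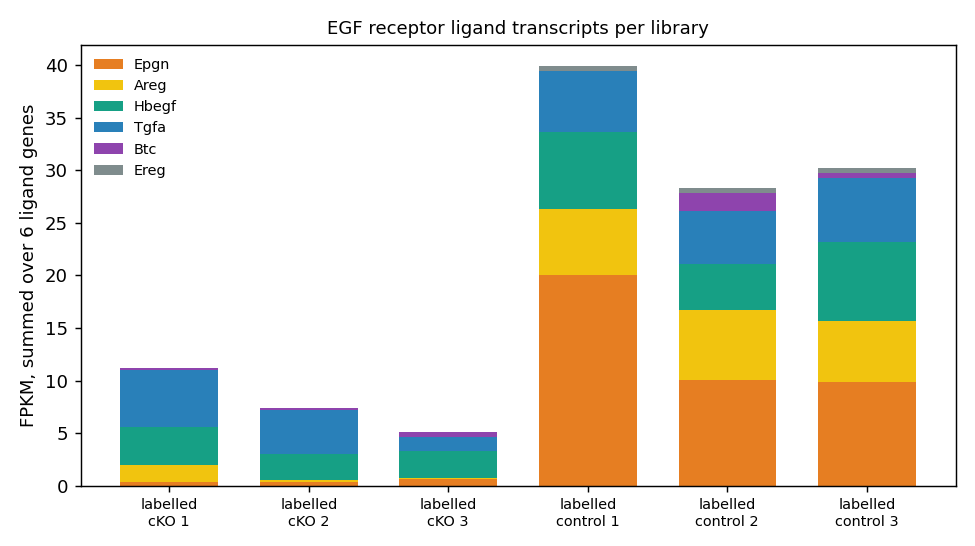
Stacked bars of the FPKM of 6 ligand genes (vertical axis, linear, from 0) in each library, those labelled cKO on the left and those labelled control on the right. The sums are 5.14 to 11.2 FPKM on the left and 28.3 to 39.95 FPKM on the right, and the Epgn part is at least 9.82 FPKM in each library labelled control.

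Egfr, the gene of the receptor for all 6 ligands, was near the same level in all libraries. It had 14.7, 15.2 and 14.2 FPKM in the libraries labelled cKO 1, 2 and 3, against 17.5, 16.5 and 17.5 FPKM in those labelled control 1, 2 and 3. Spread within a group was small and the ranges lay apart, with the libraries labelled cKO slightly lower. The difference of -0.21 (SE 0.14, adjusted p = 0.305) did not pass the test and was close to the median of all genes. Under scaling by the median of ratios it was 0.00028, so its sign depends on the scaling.

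Erbb2, the gene of the preferred partner of EGFR, was higher in the libraries labelled cKO, close to the threshold of the test. It had 73.1, 72.5 and 95.9 FPKM in the libraries labelled cKO 1, 2 and 3, against 61.4, 49.7 and 54.1 FPKM in those labelled control 1, 2 and 3. The groups did not overlap, and cKO 3 was the highest library. The difference was 0.53 (SE 0.16, adjusted p = 0.0492), and leaving out any 1 of the 6 libraries took the call away (adjusted p = 0.0575 to 0.148). Exons of Erbb2 overlap those of Mien1 on the opposite strand in the GRCm38 annotation, and without the use of strand being stated their reads cannot be told apart. Mien1 was at 13.0, 12.4 and 25.3 FPKM in the libraries labelled cKO, against 10.3, 13.8 and 19.8 FPKM in those labelled control (0.17, adjusted p = 0.734).

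The level of Erbb2 was 4.98, 4.78 and 6.75 times that of Egfr in the libraries labelled cKO 1, 2 and 3, and 3.50, 3.01 and 3.09 times in those labelled control 1, 2 and 3, in FPKM. The ratio was higher in every library labelled cKO, and being taken within a library it does not depend on library scaling.

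Errfi1, the gene of the cytoplasmic EGFR inhibitor, was lower in the libraries labelled cKO. It had 11.9, 9.95 and 7.08 FPKM in the libraries labelled cKO 1, 2 and 3, against 44.3, 15.5 and 24.2 FPKM in those labelled control 1, 2 and 3. The groups did not overlap, though control 2 lay nearer to cKO 1 than to control 1. The difference was -1.35 (SE 0.36, adjusted p = 0.0371). It was -0.97 without control 1 (adjusted p = 0.0681), and the call was also lost without cKO 1, cKO 2, cKO 3 or control 3 (adjusted p up to 0.0929) and with median-of-ratios scaling (-1.14, adjusted p = 0.0568).

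Lrig3 was higher in the libraries labelled cKO. It had 45.8, 39.1 and 32.6 FPKM in the libraries labelled cKO 1, 2 and 3, against 21.5, 14.8 and 25.6 FPKM in those labelled control 1, 2 and 3. The groups did not overlap, with the narrowest gap between cKO 3 and control 3. The difference was 0.91 (SE 0.22, adjusted p = 0.0273), and the call was lost without cKO 1, cKO 2, control 1 or control 2 (adjusted p up to 0.0851). Scaling by the median of ratios gave 1.13 (adjusted p = 0.00886).

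**Figure D3:**
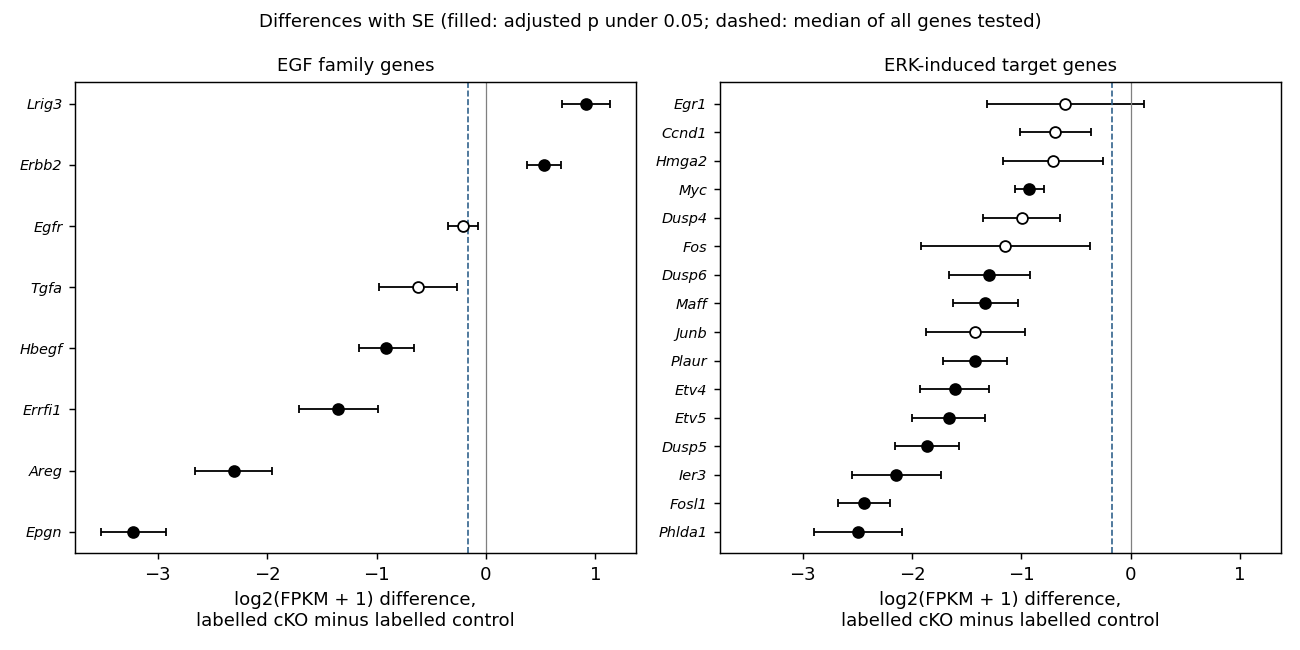
Difference in log2(FPKM + 1), libraries labelled cKO minus those labelled control, with SE bars, for the 8 EGF family genes tested (left) and 16 ERK-induced target genes (right). Filled points were called, the dashed line is the median of all genes tested (-0.17), and Epgn (-3.22) and Lrig3 (0.91) are the ends of the left panel.

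Among genes of related receptors and ligands, most were too low to test. Of 7 such genes 6 were in the table and 1, Erbb3, passed the filter. Erbb3, a receptor that signals through ERBB2 and binds neuregulins, was at 86.2, 79.1 and 68.3 FPKM in the libraries labelled cKO, against 123, 104 and 97.2 FPKM in those labelled control (-0.47, SE 0.15, adjusted p = 0.0580). The melanocyte marker sums given above lay the same way as Erbb3. Nrg1, which encodes the ligand neuregulin 1, was at 0.0378, 0.0180 and 0 FPKM in the libraries labelled cKO, against 1.45, 1.02 and 1.25 FPKM in those labelled control, without overlap (exact permutation test, two-sided, p = 0.1, the smallest this test can give). Nrg4, which encodes the ligand neuregulin 4, lay the other way, at 0.448, 0.514 and 1.42 FPKM in the libraries labelled cKO, against 0, 0 and 0.221 FPKM in those labelled control, also without overlap (exact permutation test, two-sided, p = 0.1). Egf was at 0.220 to 0.654 FPKM and 0.176 to 1.00 FPKM, overlapping, and Erbb4 did not exceed 0.0456 FPKM in any library. With no filter on low values limma called 1 of these 6 genes lower and 0 higher, against 1340 and 549 of all 17025 genes.

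Of 9 genes of ligand sheddases and their partners, 7 were tested, 1 was lower and none higher, with a median difference of -0.49, near the 13.6% lower over all genes tested. Adam17, the main sheddase of Areg, Hbegf, Epgn, Tgfa and Ereg, was at 15.6, 17.7 and 24.8 FPKM in the libraries labelled cKO, against 21.0, 15.8 and 18.8 FPKM in those labelled control (0.05, adjusted p = 0.898). Adam10, which cuts Btc and Egf, was at -0.10 (adjusted p = 0.738). The gene called was Frmd8, whose product keeps the iRhom partners of ADAM17 at the cell surface (-0.81, SE 0.20, adjusted p = 0.0286), and its call was lost without cKO 2, control 2 or control 3. With median-of-ratios scaling this list had 1 gene higher and 0 lower, against 1044 and 1001 of all 11603 genes tested. With no filter on low values 2 of its 9 genes were lower, against 1340 of all 17025.

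Within the 19 receptor adaptors and Ras-ERK cascade genes, all tested, Map2k1 (-1.17, adjusted p = 0.0117), Shc1 (-0.71, adjusted p = 0.0209) and Grb2 (-0.55, adjusted p = 0.0299) were lower, Hras was higher (0.59, adjusted p = 0.0444) and 15 were not called, with a median of -0.27, shares near the 13.6% lower and 5.87% higher over all genes tested. Map2k1, which encodes the ERK kinase MEK1, was at 11.5, 10.7 and 18.1 FPKM in the libraries labelled cKO, against 36.9, 28.9 and 27.1 FPKM in those labelled control, without overlap. Of 12 genes of the PI3K-AKT, PLC-gamma and STAT branches, Pik3cb was lower (-1.49, adjusted p = 0.00455) and Pik3r2 higher (0.74, adjusted p = 0.0110), with a median of -0.31, also near those shares. Grb2 lost its call without cKO 1, cKO 2 or any library labelled control, Hras without cKO 1, cKO 2, control 1 or control 3 and Shc1 without control 2 or control 3.

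Among 20 other negative regulators tested of 21 listed, 3 were lower, 2 higher and 15 not called, with a median of -0.49, and the shares lay near the 13.6% lower and 5.87% higher over all genes tested. Lrig1, a relative of Lrig3 and a marker of stem cells in the hair follicle, was at 20.9, 19.4 and 15.8 FPKM in the libraries labelled cKO, against 12.3, 9.22 and 12.4 FPKM in those labelled control (0.68, SE 0.18, adjusted p = 0.0390), while Lrig2 was at 0.00 (adjusted p = 0.994). Cblc, an epithelial ubiquitin ligase of the Cbl family, was higher as well (1.07, adjusted p = 0.00575). The lower ones were Socs3 (-2.54, adjusted p = 0.0110), Spry2 (-0.98, adjusted p = 0.0268) and Nf1 (-0.94, adjusted p = 0.0402). Spry4 was below the filter at 0.193 to 0.357 FPKM and 0.110 to 0.513 FPKM. Leaving out control 2 ended the calls of Socs3, Spry2, Nf1 and Lrig1, and left 1 higher and 0 lower on this list. The calls of Spry2, Nf1 and Lrig1 were also lost without cKO 1 or control 3, those of Nf1 and Lrig1 without cKO 2 or control 1, and that of Nf1 without cKO 3.

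Of 16 genes known to be induced by ERK signalling, 10 were lower and none higher in the libraries labelled cKO, against 13.6% lower over all genes tested, and their median was -1.37 against -0.17. The list was chosen with earlier results of these data known, so this contrast is a description and not an independent test. Of the 10, Fosl1, Dusp5 and Plaur averaged under 1 FPKM in the libraries labelled cKO and passed the filter through those labelled control alone, and a gene that passes in that way has to differ. With a mean of at least 5 FPKM required, 7 of 12 were lower, against 1148 of all 8318 genes tested under that filter. Fosl1, which encodes the AP-1 subunit FRA1, was at 0.174, 0.0345 and 0 FPKM in the libraries labelled cKO, against 5.31, 5.70 and 3.58 FPKM in those labelled control (-2.44, adjusted p = 0.00136). Dusp5, an ERK phosphatase gene, was at 1.66, 0.890 and 0.306 FPKM in the libraries labelled cKO, against 6.54, 5.95 and 5.01 FPKM in those labelled control (-1.86, adjusted p = 0.00557). Phlda1 (-2.49, adjusted p = 0.00617) and Myc (-0.93, adjusted p = 0.00426) were lower too.

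Dusp6, another ERK phosphatase gene, was at 13.0, 13.6 and 4.40 FPKM in the libraries labelled cKO, against 23.2, 27.9 and 22.1 FPKM in those labelled control (-1.29, adjusted p = 0.0453). Its call was lost without control 1, 2 or 3, and with median-of-ratios scaling those of Dusp6, Frmd8, Grb2 and Nf1 were lost. The immediate-early genes Fos (-1.15, adjusted p = 0.328) and Egr1 (-0.60, adjusted p = 0.590) were not called, and their high levels lay in control 1 alone. The count of lower genes was also 10 without control 1, cKO 1 or cKO 3, and it was 9 without cKO 2, 8 without control 3, 6 without control 2 and 9 with median-of-ratios scaling. Of the wound and stress keratinocyte markers 9 of 10 were lower, against 13.6% of all genes tested. Of the 10, 2 passed the filter through the libraries labelled control alone and so had to differ. These markers lay the same way as the ligands and the ERK-induced genes, and their part was not tested.

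**Figure D4:**
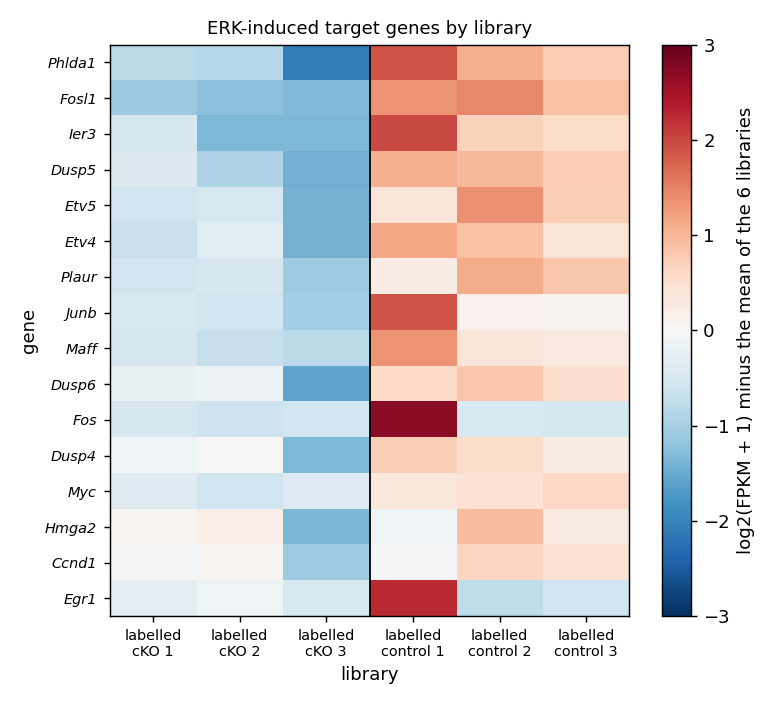
Heat map of log2(FPKM + 1) minus the mean of the 6 libraries for 16 ERK-induced genes (rows, lowest difference at the top) in the libraries labelled cKO (left of the line) and labelled control (right). Most rows are lower on the left, cKO 3 is often the lowest, and Fos, Egr1 and Junb stand out in control 1.

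Genes whose pattern over the 6 libraries was most like that of a called EGF family gene were named by Pearson r on log2(FPKM + 1), as a description. They were Abcb1b (r = 0.998), Ndufv1 and Lonp1 for Epgn, and Tax1bp3 (r = 0.999), Rab13 and Rfx3 for Areg. For Hbegf they were Eme1 (r = 0.997), Dpysl5 and Itgb3bp, for Errfi1 Uck1 (r = 0.999), Xpo7 and Flcn, for Erbb2 Sphk2 (r = 0.997), Dcakd and Klf5, and for Lrig3 Neo1 (r = 0.992), Tspan14 and Tlcd1. With 6 libraries in 2 groups such values are common: of 11377 genes compared, 464 had r above 0.95 with Epgn and 47 with Lrig3. Among the EGF family genes themselves, Errfi1 followed Hbegf (r = 0.934) and Epgn followed Egfr (r = 0.931) over the same 6 libraries.

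**Figure D5:**
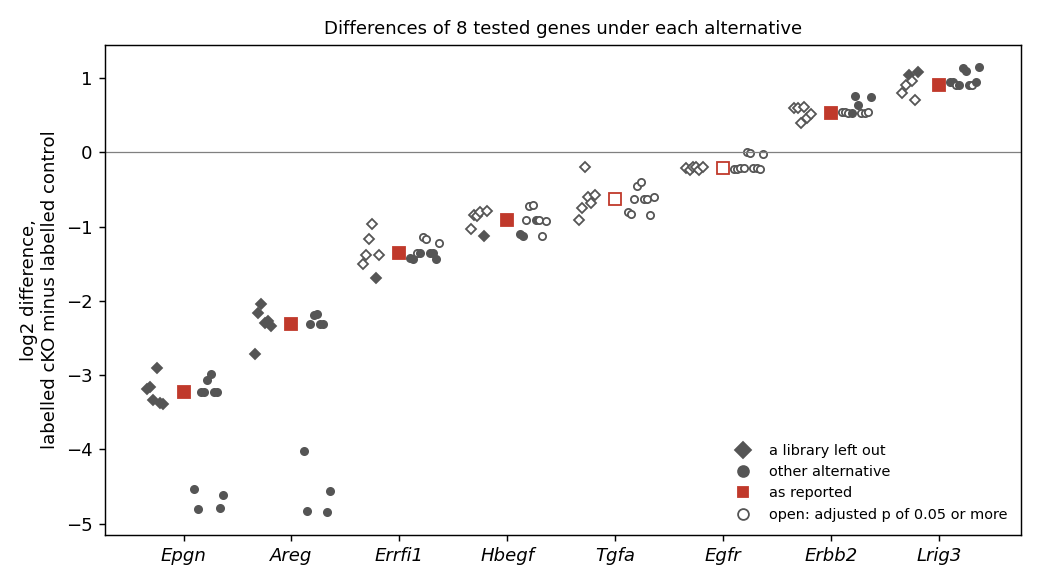
Log2 differences (vertical axis, libraries labelled cKO minus those labelled control) of the 8 tested EGF family genes as reported (red squares), with each library left out (diamonds) and under the other alternatives (circles), filled where the adjusted p was under 0.05. Epgn and Areg are filled throughout, while Hbegf, Errfi1, Erbb2 and Lrig3 are open under 6 to 12 alternatives each.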

How the data were processed

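RNA was extracted with TRIzol and libraries were made with a VAHTS Universal RNA-seq kit, per the labels' protocols. The authors deposited FPKM values for 17025 genes, and fastp, HISAT2, HTSeq and GRCm39 are named without versions per the submitters' processing notes. What annotation release, gene filter and strand setting were used is not given in the sources used here.

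FPKM values step by what 1 fragment is worth. Library totals and gene lengths giving whole fragments (relative tolerance 1e-06) were found for 17024 genes, and the totals are given as depths. Intervals and limits on fragments cover counting error only. Nothing states that the libraries came from separate animals, and p-values cover only the spread among the libraries. No 2 libraries agreed within sampling noise (mean chi-square over genes of at least 14.56, lowest for cKO 1 with cKO 2).

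The test was limma 3.58.1 (R 4.3.3) on log2(FPKM + 1) for genes averaging 1 FPKM or more, modelling group alone, with the variance following a mean trend. Benjamini-Hochberg adjustment ran over all 11603 genes tested, called under 0.05. The fit was also run on simulated data with the same spread for every gene, which is unlike these libraries and no check of them. Differences are labelled cKO minus labelled control on that scale, which understates changes of low genes. Exact permutation tests used scipy 1.17.1, and figures matplotlib 3.10.9. The text names the 10 genes, Ash2l, up to 4 called genes of each pathway list and 10 pathway genes fixed by name, marker sums, and the 3 genes most like each called member. Fos, Egr1, Junb, Lrig2, Mien1, Ptprc, Cd68, Emcn, Plvap, Vim, Fbln1, Itga6, Itgb1, Itgb4, Krt15, Nrg4, Plaur, Krt1, Krt5, Krt10, Krt14, Mthfd2l and Parm1 were chosen after their values were seen. The members, lists and motifs were chosen with earlier results of these data known. Alternatives covered pseudocounts, filters, scalings, the variance trend, a replicate block, limma-voom on recovered fragments and each library left out. Equal replicate numbers did not deviate together (r = -0.31, 0.080 and -0.26), so libraries were not paired.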

Additional observations from a re-analysis of the deposited data

How the results depend on the processing

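Epgn and Areg kept their calls and directions under every alternative that tested them, and all calls lost by Erbb2 (12 of 16 alternatives), Hbegf (11 of 15), Errfi1 (9 of 16) and Lrig3 (6 of 16) kept their direction; where a library was left out fewer samples were tested, and otherwise the cause was not tested. Of the EGF family genes, 2 higher and 4 lower as reported, 1 was higher with a pseudocount of 0.1 or 0.01, without the trend or with limma-voom on recovered fragments, and 0 with no filter; 2 were lower with a mean of at least 5 FPKM (where Areg and Hbegf were not tested), scaling by the median of ratios, quantile normalization or limma-voom with median-of-ratios scaling, an alternative chosen after seeing the data. With no filter 3 EGF family genes were lower, Epgn, Areg and Ereg, against 1340 of all 17025 genes. Of the 75 other pathway genes tested, 4 were higher and 18 lower as reported, against 5.87% and 13.6% of all genes tested. Of the 18 lower, 10 were on the ERK-induced list, which was chosen with earlier results of these data known. With no filter 2 of the other pathway genes were higher. Over all genes, 681 higher and 1576 lower as reported, scaling by the median of ratios gave 1044 and 1001, quantile normalization 1022 higher and limma-voom with median of ratios 1034 lower. Leaving out each library gave 0 to 1 higher and 2 to 4 lower EGF family genes, 2 to 5 and 8 to 17 pathway genes, and 390 to 715 and 712 to 1448 of all genes. With the replicate block, whose numbers do not pair the libraries, 0 EGF family genes were higher and 3 lower, 2 and 14 pathway genes, and 432 and 893 of all genes. The difference of Egfr changed sign under scaling by the median of ratios (0.00028). That of Adam10 became 0.12 under that scaling, 0.016 under quantile normalization and 0.10 with limma-voom and median of ratios, and ran from -0.22 to 0.11 as each library was left out, positive without control 1. That of Adam17 ran from -0.14 to 0.18 as each library was left out, negative without cKO 3 or control 2. Depth limits Epgn, Ereg, Btc and Areg in the libraries labelled cKO, where counts ran from 0 to 64 fragments, and Btc in control 1. Epgn and Areg passed the filter through the libraries labelled control alone, so that their keeping a call under filtered alternatives is not independent support.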
